A study of Macaca mulatta with 45 samples.

Results

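Heat shock proteins and the DNAJ cochaperones were followed in the fat of adult male rhesus monkeys kept on 3 diets. Members were taken by gene symbol: the HSPA, HSPB, HSPD1, HSPE1, HSPH1, HSP90A and HSP90B1 genes, the DNAJA, DNAJB and DNAJC genes, and PTGES3, with pseudogenes left out. The array annotation held 75 such genes on 115 probes. A probe was kept where it was detected, with a detection p-value below 0.05, on at least 50% of the arrays of any group. That left 55 genes on 76 probes, or 73.3% of the genes by symbol, against 12917 of 20046 genes, or 64.4%, on the whole array. The 20 genes without a kept probe were DNAJB7, DNAJB8, DNAJB9, DNAJB13, DNAJC1, DNAJC2, DNAJC5, DNAJC5B, DNAJC12, DNAJC14, DNAJC15, DNAJC16, DNAJC18, DNAJC19, DNAJC22, HSPA1A, HSPA4, HSPA5, HSPA12A and HSPB9. They include the endoplasmic reticulum chaperone HSPA5, whose human probe was detected on 0 of 45 arrays.

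The study took 24 monkeys aged 7 to 13 years, all on chow at baseline. For 24 months, 4 animals received a standard diet (SD) with 13% of energy as fat and under 5% sucrose by weight, and 10 a high-fat, high-sucrose diet (HFS) with 42% of energy as fat and about 27% sucrose by weight. The other 10 ate the HFS diet and were also given the plant polyphenol resveratrol. Its dose was 80 mg daily during year 1 and 480 mg daily during year 2, and animals without resveratrol had placebo treats. Subcutaneous fat was arrayed at baseline from 4 SD, 10 HFS and 10 resveratrol animals, which are named by the diet they were given later. At 24 months it was arrayed from 2, 5 and 4 animals, and visceral fat from 2, 4 and 4.

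Heat shock proteins are molecular chaperones that bind unfolded or partly folded proteins. HSP70 proteins (the HSPA genes) hold their clients in cycles of ATP hydrolysis: J-domain proteins (the DNAJ genes) bring clients and stimulate hydrolysis, and nucleotide exchange factors such as HSPH1 reset the cycle. HSP90 proteins act later, on receptors and kinases among other clients, with cochaperones such as p23, the product of PTGES3. Small heat shock proteins (the HSPB genes) hold unfolded proteins without using ATP, and HSPD1 with HSPE1 forms the folding chamber of the mitochondrion. The stress-inducible members are turned on by the transcription factor HSF1, and tissue handling is known to raise some of them.

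All 4 members of the HSP90 group (HSP90AA1, HSP90AB1, HSP90B1 and PTGES3) had a kept probe. So did 9 of 12 HSP70 genes, 30 of 45 J-domain genes, 7 of 8 small heat shock genes (with the HSPB1 partner HSPBAP1), both chaperonin genes and 3 of 4 exchange factors (HSPH1, HSPA4L and HSPBP1). The probe for HSPA1A was detected on 1 of 45 arrays. Its near-identical copy HSPA1B, detected on all 45, stands in for the inducible HSP70, and the 2 genes cannot be told apart with certainty.

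Values are log2 intensities after background correction and quantile normalization, 1 probe per gene. The arrays were made for human transcripts and detected 14386 to 18673 probes each. The correlation between arrays of a group was 0.911 to 0.987. The adipocyte markers PLIN1, FABP4, LEP, CIDEC and LIPE were detected on all 45 arrays and LPL on 43, but the probe for ADIPOQ only on 5. The subcutaneous arrays fell into 2 sets by their number format and signal. Set A, with 19 arrays and median signals of 48.5 to 59, held all 24-month arrays and 8 of the baseline arrays, while set B, with 16 arrays at 77.8 to 97.3, held only baseline arrays. The 10 visceral arrays formed a set of their own. The set was a term in each fit of subcutaneous arrays. Fat is a mixture of cells, so fewer cells of a type and less RNA per cell cannot be told apart.

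In subcutaneous fat at 24 months, PTGES3 and HSP90AA1, the stress-inducible HSP90, rose on the HFS diet with resveratrol compared with the HFS diet alone, and so did the J-domain gene DNAJC9 and the HSP70 gene HSPA13. DNAJC8, another J-domain gene, fell. The other core chaperones, among them HSPA1B, HSPA8, HSPD1, HSPH1, HSPB1 and DNAJB1, did not pass the test. In all, 4 of 52 members tested were higher and 1 was lower at an adjusted p below 0.05, by limma with Benjamini-Hochberg adjustment over 12130 genes. That is 9.62% of the members, against 4.71% of all genes, of which 3.77% were higher and 0.94% lower. The groups did not overlap for 7 members, or 13.5%, against 8.56% of all genes. The members' median difference was 0.06 on the log2 scale and that of all genes -0.04.

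**Figure D1:**
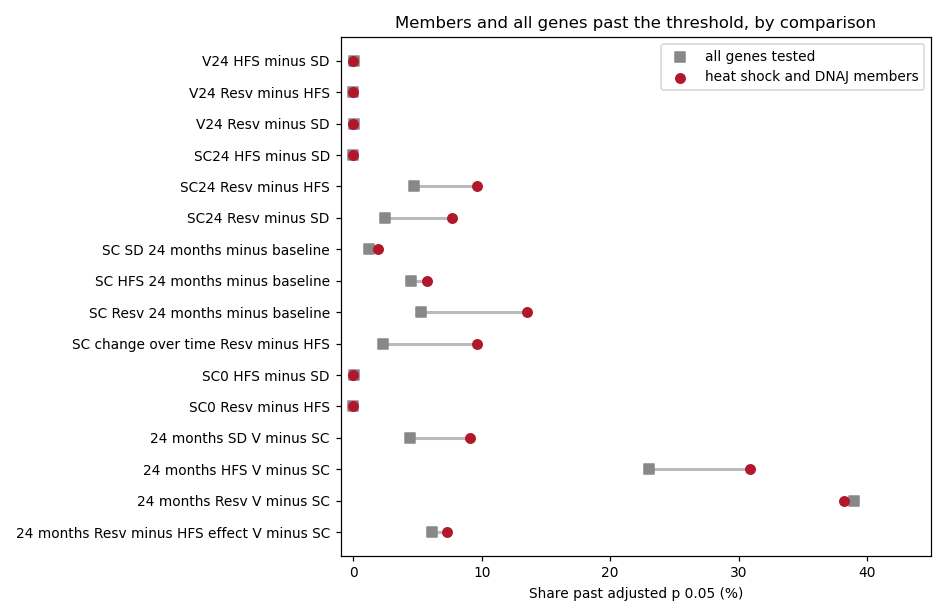
The share of genes past an adjusted p of 0.05 in each of the 16 comparisons, in percent, for the members (circles) and for all genes tested (squares). SC is subcutaneous and V visceral fat, 0 and 24 are months and Resv is resveratrol. The members' share was 0 in the visceral diet comparisons and reached 38.2% between depots on resveratrol, where that of all genes was 39%.

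PTGES3, the p23 cochaperone of HSP90, stood at 9.23, 10.04, 9.35 and 10.22 on the resveratrol arrays. On the HFS arrays it was 8.41, 8.31, 7.62, 7.69 and 8.20, and on the SD arrays 8.35 and 8.44. Every resveratrol array was above every HFS and SD array. The difference from HFS was 1.66 ± 0.25 (log2, SE), or 3.16-fold, with an adjusted p of 3.52e-05 (limma).

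HSP90AA1 encodes the inducible cytosolic HSP90. Its level was 8.39, 8.65, 8.14 and 8.94 with resveratrol, 7.42, 7.35, 6.71, 6.60 and 7.39 on HFS, and 6.93 and 7.57 on SD. The resveratrol arrays again lay above all the others, by 1.43 ± 0.30 (log2, SE) over HFS, or 2.70-fold, with an adjusted p of 0.00295 (limma). The gene has 3 kept probes, which did not behave alike. One of the other probes gave 1.62 ± 0.30 and passed over all probes, while the remaining one gave -0.17 ± 0.20 with an adjusted p over all probes of 0.754.

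The constitutive HSP90AB1 and the endoplasmic reticulum form HSP90B1 did not pass. HSP90AB1 was 11.71, 11.69, 11.60 and 11.40 with resveratrol and 11.65, 11.35, 11.64, 11.85 and 11.72 on HFS, a difference of -0.04 ± 0.16. For HSP90B1 the difference was -0.17 ± 0.17.

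**Figure D2:**
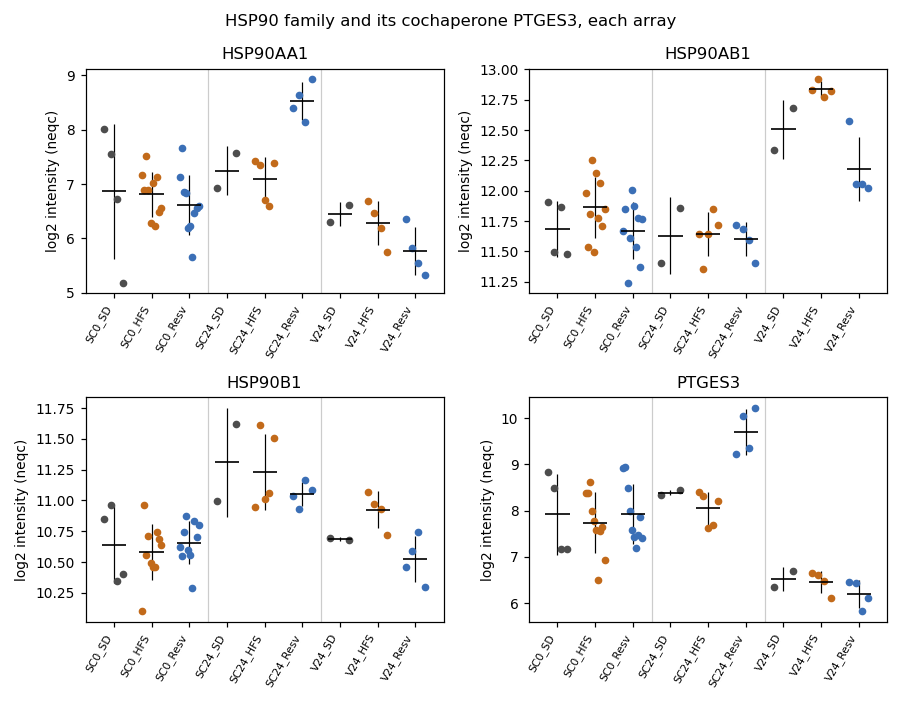
Log2 intensity of HSP90AA1, HSP90AB1, HSP90B1 and PTGES3 on every array, 1 point per array, with the group mean (horizontal line) and SD (vertical line). The subcutaneous 24-month resveratrol arrays (SC24_Resv) sit above the other 24-month arrays for HSP90AA1 and PTGES3, and the visceral arrays (V24) sit lowest for PTGES3 and highest for HSP90AB1.

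Among the HSP70 genes, 1 of 9 passed. HSPA13, an HSP70-like protein of microsomes, was 5.53, 5.67, 5.5 and 5.69 with resveratrol, 4.67, 4.98, 4.70, 4.96 and 4.80 on HFS, and 4.68 and 4.76 on SD. It was detected on all 4 resveratrol arrays, on 2 of 5 HFS arrays and on 0 of 2 SD arrays. The groups did not overlap, and the difference was 0.78 ± 0.11 (log2, SE; adjusted p = 3.52e-05, limma). The other kept probe of HSPA13 did not show it, at 0.07 ± 0.18 (adjusted p over all probes = 0.913, limma).

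HSPA1B, the inducible HSP70, varied widely in every group. It was 10.95, 10.35, 10.10 and 11 with resveratrol, 9.88, 9.53, 10.46, 11.12 and 9.68 on HFS, and 10.13 and 11.46 on SD. The groups overlapped and the difference was 0.46 ± 0.47. HSPA8, the constitutive HSP70 of the cytosol, was 12.36, 12.32, 12.62 and 12.85 with resveratrol against 12.14, 12.63, 12.48, 12.55 and 12.64 on HFS, a difference of 0.05 ± 0.18. Their exchange factor HSPH1 was 9.95, 10.72, 10.39 and 10.86 against 10.70, 10.44, 10.26, 9.65 and 10.40. Its difference of 0.19 ± 0.33 was within the spread.

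The J-domain genes held 1 rise and 1 fall among 29 tested. DNAJC9, known in human cells as a partner of histones as well as of HSP70, was 5.93, 5.87, 6.0 and 6.19 with resveratrol. It was 5.07, 4.83, 4.78, 4.88 and 5.34 on HFS, where 2 of 5 arrays detected it, and 4.64 and 4.77 on SD, where none of the 2 did. No HFS or SD array reached the resveratrol arrays, and the difference from HFS was 1.02 ± 0.11 (log2, SE, adjusted p = 1.74e-07, limma). The DNAJC9 probe was detected on 9 of 45 arrays. It met the detection filter only through these resveratrol arrays, where it is high. Its calls here and in the later comparisons with these arrays are therefore not independent of the filter. DNAJC8, a J-domain protein associated with the spliceosome, was 11.58, 11.43, 11.51 and 11.33 with resveratrol, 11.79, 12.00, 11.78, 11.93 and 11.99 on HFS, and 11.97 and 12.03 on SD. All 4 resveratrol arrays were below all 7 others. The difference from HFS was -0.43 ± 0.10 (adjusted p = 0.00835, limma), and it was -0.39 (adjusted p = 0.0600) without resveratrol replicate 4.

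DNAJB1, the inducible J-domain partner of HSP70, was 7.62, 7.66, 7.70 and 8.58 with resveratrol and 7.88, 7.68, 7.97, 7.69 and 7.79 on HFS. Its groups overlapped, with 1 high resveratrol array, and the difference was 0.09 ± 0.18. DNAJB4, a close relative, was 6.88, 7.22, 7.21 and 8.12 against 7.10, 6.81, 5.88, 6.07 and 6.37. The lowest resveratrol array lay below the highest HFS array, and the difference of 0.91 ± 0.28 had an adjusted p of 0.0518 (limma). A second probe of DNAJB4 gave 1.18 ± 0.25 with an adjusted p over all probes of 0.0017.

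The chaperonin, exchange factor and small heat shock genes held no called member. HSPB1 (HSP27) was 8.25, 8.56, 7.81 and 8.57 with resveratrol, 7.77, 8.25, 9.16, 8.17 and 7.46 on HFS, and 7.21 and 7.50 on SD. Its groups overlapped, with a difference from HFS of 0.13 ± 0.46. HSPD1 was 12.29, 12.32, 12.16 and 12.45 against 12.43, 12.46, 12.09, 12.46 and 12.32, a difference of -0.05 ± 0.18. HSPBAP1 had the most negative difference of all members, -0.81 ± 0.30, with an adjusted p of 0.126 (limma).

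**Figure D3:**
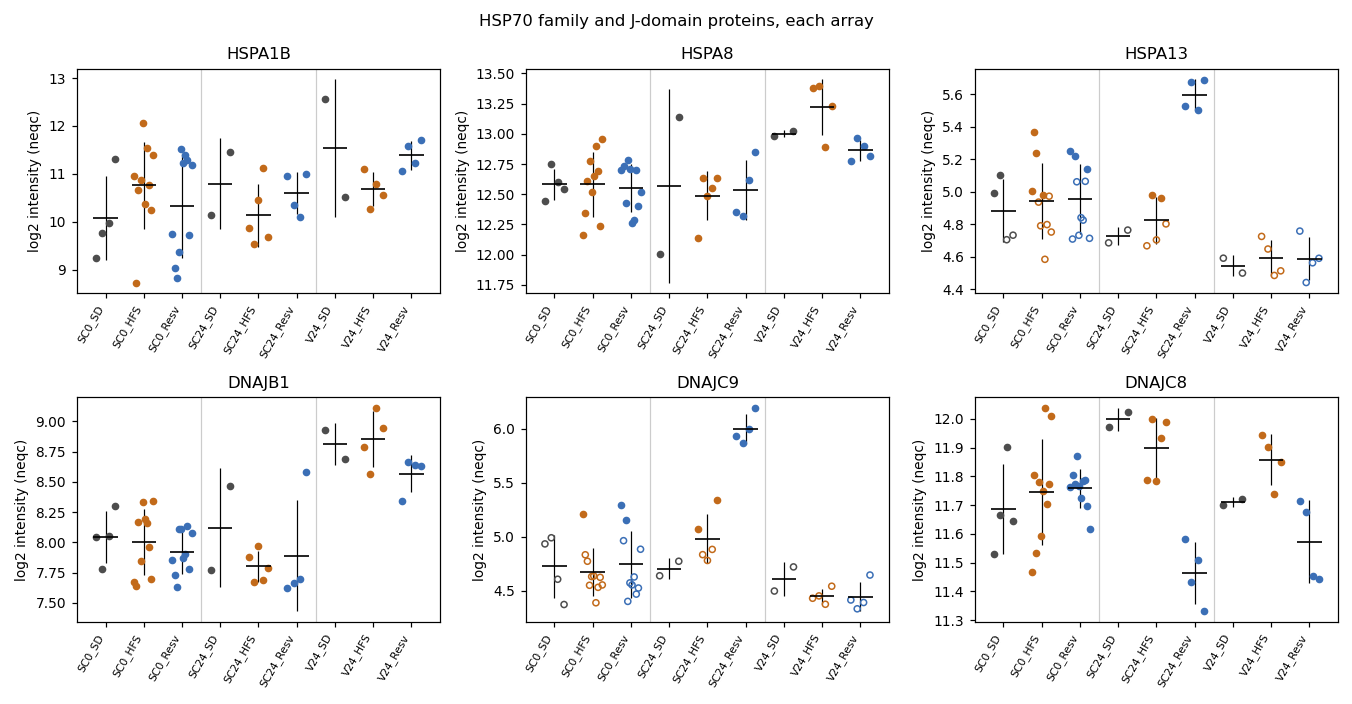
Log2 intensity of 3 HSP70 genes (HSPA1B, HSPA8, HSPA13) and 3 J-domain genes (DNAJB1, DNAJC8, DNAJC9) on every array, 1 point per array, open where the probe was not detected, with group means and SD. HSPA13 and DNAJC9 are detected on all 4 subcutaneous resveratrol arrays at 24 months and on no visceral array.

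The resveratrol arrays differed from the HFS arrays in more than these genes. They detected 17117 to 18673 probes against 15712 to 16322 on HFS, with no overlap. The summed level of the 7 adipocyte markers measured was 21695 to 32953 against 31111 to 36877, and that of 8 macrophage markers 13128 to 20424 against 13995 to 16816. The summed level of the 3 skeletal muscle markers measured, of 7 listed, was 287 to 373 against 389 to 1669, with no overlap. The part of these differences in the results was not tested, beyond a fit with the number of probes detected as a covariate. In that fit PTGES3 was 1.63, HSP90AA1 1.35 (adjusted p = 0.0410, limma), DNAJC9 0.84 and HSPA13 0.86, all past the threshold, while DNAJC8 was -0.32 (adjusted p = 0.153).

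Related genes that are not members were counted by list. Of 23 heat shock factor and HSP70 or HSP90 cofactor genes tested, SUGT1, an HSP90 cochaperone, was higher by 0.31 ± 0.09, and 22 did not pass, among them BAG3 at 0.89 ± 0.33 (adjusted p = 0.124, limma). Of 11 subunits of the cytosolic chaperonin TRiC and prefoldin, TCP1 was higher by 0.83 ± 0.19. Of 16 endoplasmic reticulum folding and stress genes, the disulfide isomerase PDIA4 (0.47 ± 0.07) and the stress kinase EIF2AK3 (0.82 ± 0.16) were higher and the stress factor DDIT3 (-0.77 ± 0.21) was lower. None of 12 genes of mitochondrial folding and import passed. Of 20 immediate early genes, which also respond to tissue handling, 1 passed, the phosphatase DUSP1 at 2.11 ± 0.27, and their median difference was 0.32.

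Against the standard diet, subcutaneous fat with resveratrol at 24 months had 3 members higher and 1 lower of 52, or 7.69%, against 2.49% of all genes (2.21% higher and 0.28% lower). This comparison shares its resveratrol arrays with the one above. DNAJC9 was at least 2.10-fold and HSPA13 at least 1.59-fold higher, since neither probe was detected on an SD array (adjusted p = 5.84e-07 and 0.000501, limma). PTGES3 was higher by 1.32 ± 0.32 (adjusted p = 0.0168) and DNAJC8 lower, at -0.53 ± 0.13 (adjusted p = 0.0223). HSP90AA1 was 1.28 ± 0.39 higher with an adjusted p of 0.0799. SD had only 2 arrays, and no member passed when only the arrays of the 2 groups were fitted. PTGES3 and DNAJC8 did not pass without either SD array or without resveratrol replicate 2 or 4.

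Between the HFS diet without resveratrol and SD, none of the 52 members passed in subcutaneous fat at 24 months, and 0% of all genes did (limma). At an unadjusted p below 0.05 there were 0 members and 282 genes, or 2.32%. The smallest p-values among members were those of DNAJC9 (at least 1.04-fold higher on HFS, as no SD array detected it), DNAJC21 (-0.36), DNAJB1 (-0.32) and HSPB1 (0.81 ± 0.57). DNAJB1 was 7.77 and 8.47 on the 2 SD arrays, and its difference was 0.027 without SD replicate 2. HSPB1 was 7.21 and 7.50 on SD, and 1 of 5 HFS arrays was below the higher of these.

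From baseline to 24 months, DNAJC24 fell in subcutaneous fat on all 3 diets. DNAJC24 is the J-domain protein DPH4 of diphthamide synthesis, a modification of elongation factor 2. On SD it went from 7.54 to 7.67, with a median of 7.61, to 6.77 and 6.49. On HFS it went from a range of 7.24 to 7.98 with a median of 7.53 to 6.39, 6.72, 6.17, 6.67 and 6.36. On resveratrol it went from 7.22 to 8.08 with a median of 7.40 to 6.69, 6.77, 6.79 and 6.96. In each diet every 24-month array lay below every baseline array. The changes were -1.03 ± 0.23, -1.16 ± 0.16 and -0.77 ± 0.17, with adjusted p-values of 0.0231, 0.000172 and 0.00646 (limma).

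On SD, DNAJC24 was the only member of 52 to pass, or 1.92%, against 1.23% of all genes (0.594% higher and 0.635% lower). On HFS 1 rose and 2 fell, or 5.77%, against 4.48% of all genes (1.93% higher and 2.55% lower). HSP90B1, the HSP90 of the endoplasmic reticulum, rose by 0.60 ± 0.15 (adjusted p = 0.0218, limma). It went from a range of 10.10 to 10.97 with a median of 10.60 to 10.95, 11.61, 11.01, 11.06 and 11.51. Only the lowest of the 24-month arrays lay below the highest baseline array. DNAJC21, a J-domain protein of ribosome assembly, was lower by -0.56 ± 0.17 with an adjusted p of 0.0497, and did not pass under 13 of 16 alternatives.

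With resveratrol 5 members rose and 2 fell over the 24 months, or 13.5%, against 5.25% of all genes (3.15% higher and 2.1% lower). The 24-month and baseline arrays did not overlap for 8 members, or 15.4%, against 4.61% of all genes. DNAJC9 rose by 0.92 ± 0.11 (adjusted p = 1.17e-06, limma) and HSP90AA1 by 1.27 ± 0.30 (adjusted p = 0.0089). HSPA13 rose by 0.45 ± 0.11, PTGES3 by 0.94 ± 0.24 and HSPA4L, an HSP110-like exchange factor, by 0.72 ± 0.22, with adjusted p-values of 0.0149, 0.0183 and 0.0455. DNAJC24 fell, as above, and DNAJC21 fell by 0.68 ± 0.18 (adjusted p = 0.0198). Of 15 alternatives, HSPA4L did not pass under 8, PTGES3 under 6 and DNAJC21 under 5. HSPA13 and DNAJC24 did not pass under 4 each and HSP90AA1 under 2, while DNAJC9 passed under all 15.

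Baseline levels of the HSP90 pair differed between the array sets, with set A above set B by 0.91 for HSP90AA1 and by 1.18, with no overlap, for PTGES3. Over both sets HSP90AA1 ranged from 5.65 to 7.67 with a median of 6.58 on the baseline arrays of the resveratrol animals, and from 6.23 to 7.51 on those of the HFS animals. All 4 resveratrol arrays at 24 months, which belong to set A, were above these ranges. PTGES3 ranged from 7.20 to 8.93 with a median of 7.72 in the resveratrol animals. Its set A baseline arrays, from 8.50 to 8.93, were the nearest to the 24-month values, and none of these reached the lowest of them, 9.23.

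The change over time differed between resveratrol and HFS for 5 members, or 9.62%, against 2.34% of all genes (2% higher and 0.338% lower). The difference was 0.95 ± 0.13 for DNAJC9, 0.76 ± 0.14 for HSPA13, 1.47 ± 0.30 for PTGES3, 1.63 ± 0.36 for HSP90AA1 and -0.45 ± 0.12 for DNAJC8. Their adjusted p-values (limma) were 3.33e-05, 0.00116, 0.00327, 0.00922 and 0.0463. These are the 5 members that differed at 24 months, and both comparisons use the same 24-month arrays. For this difference DNAJC8 did not pass under 13 of 20 alternatives. PTGES3 and HSP90AA1 did not pass under 4 each, among them the number of probes detected as a covariate and the fit without the array set.

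Each of the 11 subcutaneous arrays at 24 months had a baseline array of the same animal, a pairing that the fits above left out. Arrays of 1 number came from 1 animal at both times in 9 of 11 pairs. A block by replicate number therefore joins different animals in the other pairs. With the replicate number as a block, 0 members passed on SD and on HFS, where DNAJC24 was -0.93 (adjusted p = 0.198, limma) and -1.32 (adjusted p = 0.0511) and HSP90B1 0.68 (adjusted p = 0.0760). On resveratrol 5 passed, 3 of them shared with the unblocked fit: DNAJC9 (0.86), HSP90AA1 (1.25) and DNAJC21 (-0.67). For the difference in change 0 passed, with DNAJC9 at 0.97 (adjusted p = 0.0888), HSPA13 at 0.83, PTGES3 at 1.43, HSP90AA1 at 1.35 and DNAJC8 at -0.61. Over all 12130 genes the replicate block gave 4 on SD, 11 on HFS, 633 on resveratrol and 2 for the difference in change. With the animal as a random block the member counts were 1 on SD, 6 on HFS, 11 on resveratrol and 5 for the difference in change, and each held all the members named above for it. The counts over all genes were then 476, 1051, 1279 and 484, against 149, 543, 637 and 284 without a block.

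Within array set A alone, which holds both times, 0 members passed on SD and 1 on HFS (DNAJC24, -1.28, adjusted p = 0.0264, limma). On resveratrol 4 passed, of which 2 were shared with the fit of both sets, DNAJC9 (0.86) and HSP90AA1 (1.31). The other members named above for resveratrol did not pass. PTGES3 was 0.93, HSPA13 0.54 and HSPA4L 0.52, with adjusted p-values of 0.0665, 0.0612 and 0.300 (limma). DNAJC24 was -0.72 and DNAJC21 -0.54, with adjusted p-values of 0.0892 and 0.153. For the difference in change 0 passed, and the values were 0.82 for DNAJC9, 0.92 for HSPA13, 1.34 for PTGES3 and 1.4 for HSP90AA1. Over all genes, 5 passed on SD, 22 on HFS, 232 on resveratrol and 0 for the difference in change.

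In visceral fat no member of 50 passed in any diet comparison. Between resveratrol and HFS 0% of all genes passed. The lowest adjusted p of a member was 0.102 (limma), which was also the lowest of any gene. At an unadjusted p below 0.05 there were 20 members, or 40% of them, against 23.7% of all genes. The groups did not overlap for 10 members, or 20%, against 14.5% of all genes. All 4 genes of the HSP90 group were below 0, from -0.66 to -0.26, which is the opposite side from HSP90AA1 and PTGES3 in subcutaneous fat.

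The 4 visceral members with the smallest p-values were HSPB8, HSP90AB1, DNAJC11 and HSPBAP1. HSPB8, a small heat shock protein of the BAG3 complex, was 9.10, 8.84, 8.71 and 9.11 with resveratrol, 9.96, 9.78, 9.95 and 9.96 on HFS, and 9.59 and 9.85 on SD. The resveratrol arrays were below all others, with a difference from HFS of -0.97 ± 0.16 (adjusted p = 0.102, limma). HSP90AB1 was 12.58, 12.06, 12.06 and 12.02 with resveratrol, 12.83, 12.92, 12.77 and 12.83 on HFS, and 12.33 and 12.68 on SD. All HFS arrays were above all resveratrol arrays, and the difference was -0.66 ± 0.15 (adjusted p = 0.102).

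HSPBAP1 was 6.34, 5.87, 6.19 and 5.97 with resveratrol and 6.77, 6.96, 6.97 and 7.20 on HFS, with no overlap. Its difference of -0.88 ± 0.25 (adjusted p = 0.104, limma) was on the same side as in subcutaneous fat. DNAJC11, a mitochondrial J-domain protein, was 4.75, 5.55, 5.01 and 5.39 with resveratrol, where 3 of 4 arrays detected it, and was not detected on any HFS array. The difference was 0.70 ± 0.17 as measured, or at least 1.1-fold (adjusted p = 0.102). In visceral fat its probe met the detection filter only through these resveratrol arrays, where it is high. Its differences here and in the later visceral comparisons with these arrays are therefore not independent of the filter. HSPA1B was 11.07, 11.57, 11.22 and 11.71 with resveratrol and 11.11, 10.27, 10.78 and 10.56 on HFS, and 1 HFS array was above the lowest resveratrol array. Its difference was 0.71 ± 0.37 with an adjusted p of 0.256.

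The visceral count depended on 1 array. Without resveratrol replicate 1, 9 members passed, among them HSPB8 (-1.03), HSP90AB1 (-0.79), DNAJC11 (0.85) and HSPBAP1 (-0.96). In that fit 1515 of 11657 genes passed, against 0 with all arrays. When only the HFS and resveratrol arrays were fitted, 2 members and 311 of 11657 genes passed. The number of probes detected was 15153 to 16839 with resveratrol and 15039 to 15414 on HFS, and with it as a covariate HSPB8 was -0.90 with an adjusted p of 0.716 (limma). Markers of other cell types moved in the same comparison without passing the test. All 6 smooth muscle and pericyte markers tested were above 0, with a median of 1.04, DES at 2.15 ± 0.38 and CSPG4 at 0.81 ± 0.19 (adjusted p = 0.102 for both, limma). The summed level of the 7 listed was 19862 to 47087 with resveratrol and 16853 to 27350 on HFS. Of 6 endothelial markers 4 were above 0, with CLDN5 at 1.49 ± 0.30 (adjusted p = 0.102, limma), and their sum was 15768 to 19949 against 10317 to 21333. The part of these in the visceral values was not tested.

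Of the related lists, none had a gene past the threshold between resveratrol and HFS in visceral fat. Among cofactors, the HSF1-binding protein HSBP1 was -3.05 ± 0.85, BAG3 was 1.15 ± 0.32, the HSP70-linked ubiquitin ligase STUB1 was 0.97 ± 0.29 and TTC4 was -0.73 ± 0.21, with adjusted p-values of 0.103 to 0.106 (limma). HSBP1 was also -2.62 ± 0.80 between the subcutaneous fat of the same 2 diet groups at baseline, before resveratrol (unadjusted p = 0.00239, adjusted p = 1, limma). The 17 immediate early genes tested had a median difference of 0.27.

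The 2 visceral comparisons with SD, where 0.00858% of all genes passed in each, held no called member either. At an unadjusted p below 0.05 there were 3 members (6%, against 4.91% of all genes) between HFS and SD, and 6 (12%, against 9.89%) between resveratrol and SD. HFS against SD had its smallest p-values in DNAJB12 (0.89), HSPB1 (0.82 ± 0.32), DNAJC17 (0.71) and DNAJC30, all with an adjusted p of 0.901 (limma). DNAJC30 was detected on no HFS array and was at least 1.09-fold lower there. Resveratrol against SD had them in HSPB8 (-0.78), DNAJB5 (0.72), DNAJC11 and DNAJA2 (-0.94), with a lowest adjusted p of 0.47. DNAJC11 was detected on no SD array and was at least 1.14-fold higher with resveratrol.

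**Figure D4:**
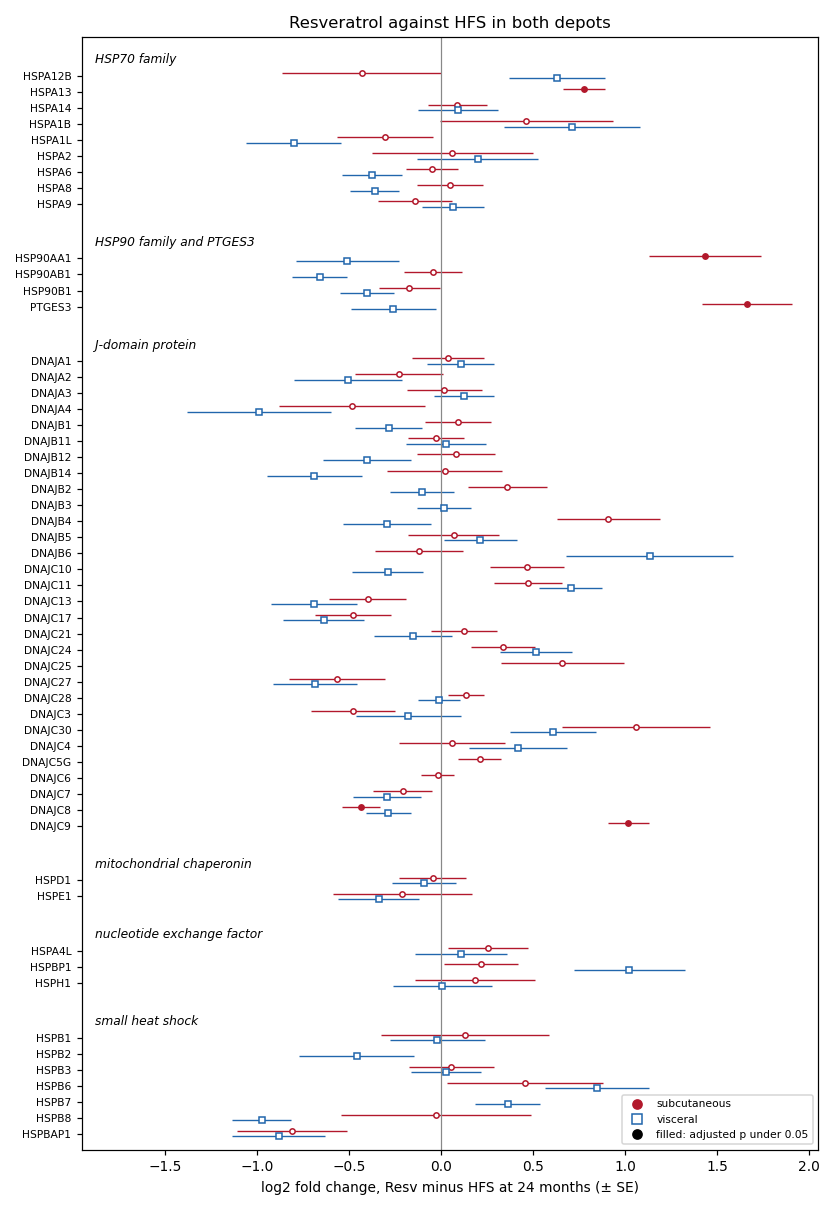
Log2 fold change of resveratrol over HFS at 24 months for every member tested, grouped by role, in subcutaneous (circles) and visceral fat (squares), with its SE; filled symbols passed an adjusted p of 0.05. HSP90AA1 and PTGES3 lie right of 0 in subcutaneous and left of 0 in visceral fat.

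The resveratrol difference itself was compared between the depots at 24 months, as the visceral minus the subcutaneous difference from HFS. It passed for 4 of 55 members, all lower in visceral fat, or 7.27%, against 6.12% of all genes (2.1% higher and 4.02% lower), a share near the background. The values were -1.02 ± 0.15 for DNAJC9, -1.92 ± 0.34 for PTGES3, -0.78 ± 0.16 for HSPA13 and -1.94 ± 0.43 for HSP90AA1, with adjusted p-values of 4.09e-05, 0.000738, 0.00229 and 0.00521 (limma). DNAJC9 and HSPA13 were detected on no visceral array, so a visceral difference in them was not measurable. DNAJB4 was -1.20 ± 0.39 with an adjusted p of 0.0574 and HSP90AB1 -0.62 ± 0.22 with 0.0892. From the related lists DUSP1 (-2.15 ± 0.37), TCP1 (-1.29 ± 0.27), EIF2AK3 (-0.77 ± 0.22), PDIA4 (-0.41 ± 0.10) and SUGT1 (-0.46 ± 0.14) passed on the same side and PDIA6 (1.71 ± 0.53) on the other. DUSP1, PDIA4 and SUGT1 had no probe that met the detection filter in visceral fat, so they were not tested in that depot by itself. They were kept only through subcutaneous groups, so the side of their depot difference is not independent of the filter.

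Between depots, PTGES3 was lower and HSP90AB1 higher in visceral fat on every diet. The small heat shock gene HSPB2 was also higher there, but its probe met the detection filter only through visceral groups. The visceral arrays were a set of their own, so depot and array set cannot be told apart in what follows. On SD 3 members were higher and 2 lower in visceral fat of 55, or 9.09%, against 4.42% of all genes (2.79% higher and 1.63% lower). On HFS 8 were higher and 9 lower, or 30.9%, against 23% of all genes (13.3% higher and 9.72% lower). On resveratrol 10 were higher and 11 lower, or 38.2%, against 39% of all genes (21.9% higher and 17.1% lower). The members' median difference was 0.13 on HFS and 0.08 on resveratrol, against 0.05 and 0.06 for all genes. Some animals gave arrays of both depots, which these fits did not pair. With the animal as a random block, 5, 18 and 22 members passed on SD, HFS and resveratrol. The counts over all 12917 genes were then 773, 3443 and 5321.

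PTGES3 was 6.34 and 6.70 on the visceral SD arrays, 6.65, 6.61, 6.49 and 6.12 on HFS and 6.45, 6.44, 5.82 and 6.11 on resveratrol. Every one lay below every subcutaneous 24-month array. The visceral minus subcutaneous differences were -1.87 ± 0.35, -1.58 ± 0.24 and -3.50 ± 0.25 (adjusted p = 0.00101, 4.69e-06 and 1.28e-13, limma). HSP90AB1 differed by 0.87 ± 0.23, 1.20 ± 0.15 and 0.58 ± 0.16, and its lowest visceral array, 12.02, was above its highest subcutaneous 24-month array, 11.86. The constitutive HSP90 and its p23 cochaperone thus lay on opposite sides.

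HSP90AA1 was 6.69, 6.46, 6.20 and 5.75 on the visceral HFS arrays and 6.35, 5.83, 5.55 and 5.33 on resveratrol. It was lower in visceral fat by -0.82 ± 0.30 on HFS (adjusted p = 0.0411, limma) and -2.76 ± 0.31 on resveratrol (adjusted p = 4.83e-09), and its -0.80 ± 0.44 on SD had an adjusted p of 0.332. The 3 probes disagreed here too: the probe without the resveratrol difference was higher in visceral fat on HFS, at 0.56 ± 0.20, and the remaining probe lower, at -1.21 ± 0.28, both past the threshold over all probes.

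HSPB2, a small heat shock gene best known from muscle, was 5.77 and 6.38 on visceral SD arrays and 6.0, 5.77, 6.22 and 6.44 on HFS. It was detected on 9 of 10 visceral arrays and on 1 of 11 subcutaneous arrays at 24 months. As HSPB2 was kept only through visceral groups, the side of its difference is not independent of the filter. It was at least 2.21-fold higher in visceral fat on SD and at least 1.71-fold on resveratrol, and on HFS the difference was 1.33 ± 0.18 (adjusted p = 9.65e-07, limma).

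DNAJC24 was higher in visceral fat by 0.95 ± 0.25, 0.81 ± 0.17 and 0.98 ± 0.18 on SD, HFS and resveratrol, and DNAJC28 lower by -0.51 ± 0.14, -0.62 ± 0.09 and -0.77 ± 0.10. A second probe of DNAJC28 gave -0.24 ± 0.16 on HFS and did not pass. DNAJB1 was 8.79, 8.57, 9.11 and 8.95 on the visceral HFS arrays, all above the subcutaneous HFS arrays, a difference of 1.05 ± 0.17 (adjusted p = 1.63e-05, limma). It was 0.68 ± 0.18 on resveratrol and 0.69 ± 0.26 on SD, where the adjusted p was 0.119. HSPA8 was 13.38, 13.39, 12.89 and 13.23 on the visceral HFS arrays, again all above the subcutaneous ones, by 0.73 ± 0.17 (adjusted p = 0.00127).

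DNAJC25 was not detected on any visceral array and was at least 1.77-fold higher in subcutaneous fat on HFS and at least 2.93-fold on resveratrol. Its probe met the detection filter only through subcutaneous groups, as did those of DNAJC9 and HSPA13. The side of their depot differences is therefore not independent of the filter. On resveratrol DNAJC9 and HSPA13 were at least 2.04-fold and 1.55-fold higher in subcutaneous fat. There DNAJB4 (-2.22 ± 0.29) and DNAJC10 (-1.34 ± 0.21), an endoplasmic reticulum reductase, were also lower in visceral fat. A second probe of DNAJC10 gave -0.03 ± 0.19. The remaining members called on HFS were DNAJB4, DNAJB6, DNAJA2 and DNAJC10, lower in visceral fat, and HSPA1L, DNAJC4 and DNAJC27, higher. DNAJC9 was also counted as lower there, but its probe was detected on 2 of 5 subcutaneous and on no visceral HFS arrays, and no fold above background could be given. The inducible HSPA1B, HSPH1 and HSPB1 did not pass in any of the 3 depot comparisons.

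Markers of mesothelium, the cell layer over visceral organs, also moved with depot. Of 8 such markers, 3 were higher in visceral fat on HFS and 5 did not pass (limma). The higher ones were MSLN, which differed by 2.07, KRT19 by 2.39 and WT1 by 2.98 (log2, visceral minus subcutaneous), while CALB2 was on the other side, at -1.38 ± 0.82 (adjusted p = 0.234, limma). The summed level of the 8 was 709 to 947 in visceral and 321 to 749 in subcutaneous fat. Its part in the depot differences was not tested.

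At baseline, before the diets, no member of 52 passed between the groups (limma), with 0.00824% of all genes passing between HFS and SD and 0% between resveratrol and HFS. At an unadjusted p below 0.05 there were 1 member (1.92%, against 3.01% of all genes) in the first of these comparisons and 0 (against 3.12%) in the other. Over these 24 arrays the inducible HSPA1B had a wider range than the constitutive HSPA8, each on its own probe's scale. Part of that range lay between the array sets, whose means were 9.62 in set A and 10.89 in set B for HSPA1B and 12.52 and 12.60 for HSPA8. HSPA1B ranged from 8.73 to 12.06 with a median of 10.82 in the HFS animals, from 8.84 to 11.51 in the resveratrol animals and from 9.25 to 11.32 in the SD animals. HSPA8 stayed between 12.16 and 12.95 over the same arrays.

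Whether the inducible genes varied together was examined within each array set, over 5 pairs with HSPA1B in 2 sets and p-values adjusted over the 10 relations. HSPH1 followed HSPA1B in set B with a Pearson r of 0.758 and a Spearman rho of 0.726 over 16 arrays (permutation test, adjusted p = 0.00580 and 0.0190). In set A, over 8 arrays, r was 0.706 and rho 0.571 (exact permutation test, adjusted p = 0.0610 and 0.217). HSPB1 followed it in set A with r of 0.909 and rho of 0.881 (exact permutation test, adjusted p = 0.0231 and 0.0357). In set B its r was 0.587 and rho 0.376 (permutation test, adjusted p = 0.0574 and 0.217).

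DNAJB1 gave r of 0.388 and rho of 0.524 in set A and 0.452 and 0.506 in set B, and HSPA8 gave r of -0.164 and 0.0844 and rho of 0.0952 and 0.138, none past the adjusted threshold. On the deposited z scores DNAJB1 passed in set B, with r of 0.724 and rho of 0.585 (permutation test, adjusted p = 0.00926 and 0.0436). The immediate early gene FOS, which rises with tissue handling, gave r of 0.768 and rho of 0.762 in set A (exact permutation test, adjusted p = 0.0581 and 0.120) and 0.629 and 0.474 in set B (permutation test, adjusted p = 0.0437 and 0.134). Without the 2 arrays farthest from the median of HSPA1B, r was 0.680 for HSPH1 and 0.453 for FOS in set B and 0.792 for HSPB1 in set A. None of the 10 relations then passed, with fewer arrays and a narrower range of HSPA1B.

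**Figure D5:**
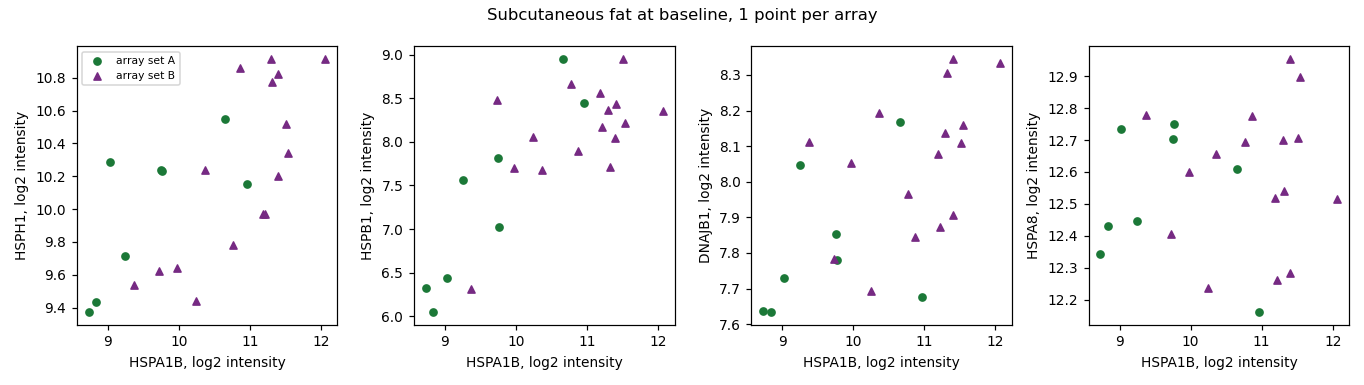
Log2 intensity of HSPH1, HSPB1, DNAJB1 and HSPA8 against that of HSPA1B in subcutaneous fat at baseline, 1 point per array, circles for array set A (8 arrays) and triangles for set B (16 arrays). The relation with HSPA1B passed for HSPH1 in set B (r of 0.758) and for HSPB1 in set A (r of 0.909). It did not pass for HSPH1 in set A (0.706) or HSPB1 in set B (0.587), nor for DNAJB1 or HSPA8 in either set. None passed without the 2 arrays of each set farthest from the median of HSPA1B.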

How the data were processed

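Fat of rhesus monkeys was hybridised to human bead arrays. The authors deposited non-normalized probe intensities with a detection p-value per probe, made with GenomeStudio 1.9.0 per the submitters' processing notes, and a table of score values, deposited as z scores. Each z score equalled the log intensity standardized within its array. Intensities from 45 arrays (47231 probes, 92 more being empty) were background-corrected, quantile-normalized and log2-transformed with neqc (limma 3.58.1, R 4.3.3, offset 16), which infers the background from the deposited detection p-values. Precision is limited by the number of arrays. Symbols came from the platform annotation: 30113 probes had 1 symbol, 8 several and 17110 none, and only the first were used. The series has arrays as replicates, and p-values measure the spread between them. Members and related lists were chosen with earlier results of these data known.

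Each gene was read from its kept probe with the highest mean over the arrays of the fit. Limma (lmFit and eBayes with a trend) was fitted to 10 visceral arrays (11657 genes, 50 members), to 35 subcutaneous arrays (12130 genes, 52 members) with the array set as a term, and to all 45 (12917 genes, 55 members) for depots. Tests were two-sided, Benjamini-Hochberg adjusted over all genes of each of 16 comparisons, and called at an adjusted p below 0.05. The fits were tested on simulated data. Members given by sample were the core chaperones and, in each comparison, the members past the threshold (at most 8, by p), or the 4 with the smallest p where none passed; of the related lists up to 4 genes by p were eligible, and all members could be named. A gene undetected on every array of a group has only a bound there: the bright group's mean was set against the higher of its own signal and the lowest detected signal on each array.

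The alternatives were quantile normalization without background correction, the z scores, no filter or a stricter one on dim probes, depots normalized separately, the mean of a gene's kept probes, only the groups compared, no array set, 1 array set alone, probes detected as a covariate, the animal or replicate number as a block, and leaving out in turn each array of the groups of 2 to 5 arrays (the 20 baseline arrays of the HFS and resveratrol animals were not left out). HSPA1B in place of HSPA1A and each probe by itself were chosen after seeing the data. Of 11 pairs of arrays with 1 number at both times, 9 came from 1 animal by the column names. In these 9 pairs the deviations from the group means correlated at 0.0953 to 0.481, over 0.1 in 8. In the pairs from different animals they correlated at -0.332 and -0.0131. Of 42 pairs of arrays with 1 number in different groups at 24 months, 3 came from 1 animal, all across depots. Another animal on HFS gave both depots under different numbers. Correlations used exact permutation tests in set A and 100000 permutations in set B.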

Additional observations from a re-analysis of the deposited data

Results flagged for a closer look

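In 9 of 217 combinations of a member and a group of 4 to 10 arrays (31 members), 1 array stood far from the others of its group; chance gives about 5%. In visceral fat with resveratrol, replicate 1 stood apart for HSP90AB1, at 12.58 against 12.02 to 12.06, and for DNAJB1, at 8.34 against 8.63 to 8.66. In visceral fat on HFS, HSPB8 was 9.78 in replicate 2 against 9.95 to 9.96, and DNAJB4 was 4.95 in replicate 1, not detected, against 5.53 to 5.65. In subcutaneous fat with resveratrol at 24 months, DNAJB1 was 8.58 in replicate 4 against 7.62 to 7.70. At baseline, DNAJA2 was 9.31 in replicate 4 of the resveratrol animals against 10.30 to 11.27, and DNAJC11 was 4.97 in replicate 2 of the SD animals, not detected, against 4.49 to 4.56. Among the HFS animals at baseline, HSPB1 was 6.33 in replicate 2 against 7.68 to 8.95, and HSPB2 was 5.52 in replicate 1 against 4.34 to 4.59.

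The change over time in subcutaneous fat differed between resveratrol and HFS for 5 members: DNAJC9 by 0.95, HSPA13 by 0.76, PTGES3 by 1.47, HSP90AA1 by 1.63 and DNAJC8 by -0.45. Of these, DNAJC8 did not pass under 13 of 20 alternatives. The difference between resveratrol and HFS at 24 months differed between the depots for 4 members, with visceral minus subcutaneous values of -1.02 for DNAJC9, -1.92 for PTGES3, -0.78 for HSPA13 and -1.94 for HSP90AA1. DNAJC9 and HSPA13 were detected on no visceral array, so their values carry only the subcutaneous difference.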

How the results depend on the processing

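DNAJC9, HSPA13, PTGES3 and HSP90AA1 stayed past the threshold between resveratrol and HFS in subcutaneous fat at 24 months under all 19 alternatives run on 1 value per gene, and DNAJC8 did not in 3; read from another of their kept probes, HSPA13 (0.07) and HSP90AA1 (-0.17) did not pass. Over all named members and comparisons, 1144 alternatives left the call as it was, 119 lost it and 6 gained it. The other 2 reversed a value that had not passed: DNAJB1 between HFS and SD in subcutaneous fat was 0.027 without SD replicate 2 (-0.669 to 0.027 over the arrays left out), and HSPA6 between resveratrol and HFS at baseline was -0.0193 in set A alone. The cause was not tested in any of these. Low signals limit DNAJC9, HSPA13, DNAJC11 and DNAJC25, which were undetected in some groups, and the number of arrays limits SD.

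Counts of members called moved by over 1.5 times as follows, and the count over all genes moved in the same direction each time. With z scores they were 9 for subcutaneous resveratrol against HFS, 7 against SD, 0 for SD over time, 2 for the SD depots and 7 for the depot difference in the resveratrol effect. With only the groups compared they were 2 in visceral resveratrol against HFS, 0 in subcutaneous resveratrol against SD, 0, 1 and 3 over time on SD, HFS and resveratrol and 0 for the SD depots; fewer arrays then estimate the spread. Without the array set they were 2 in subcutaneous resveratrol against SD, 0 over time on SD, 11 on resveratrol and 2 for the difference in change. In set A alone they were 0, 1 and 4 over time and 0 for the difference. With probes detected as a covariate they were 3 over time on resveratrol, 2 for the difference in change and 9 for the depot difference in effect. With the animal as a random block they were 6 over time on HFS and 11 on resveratrol. With each probe tested by itself they were 8 for subcutaneous resveratrol against HFS and 9 for the depot difference in effect. The replicate block gave 0 over time on SD, 0 on HFS and 0 for the difference in change, moved no other count of calls by over 1.5 times, and ended the calls of DNAJC24, HSPA13, PTGES3 and HSPA4L over time on resveratrol, as it did those of the other members named on SD and HFS.

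Leaving out 1 array at a time, from the groups of 2 to 5 arrays, gave 0 to 9 members in visceral resveratrol against HFS. The 9 were without resveratrol replicate 1, where 1515 of 11657 genes passed. Leaving out 1 array gave 0 to 0 in the other visceral diet comparisons and in subcutaneous HFS against SD. At baseline it gave 0 to 0 without each of the 4 SD arrays. It gave 4 to 6 in subcutaneous resveratrol against HFS and 2 to 4 against SD, with 2 without SD replicate 1 or 2 or resveratrol replicate 2 or 4. Over time it gave 0 to 1 on SD (0 without baseline replicate 1 or 24-month replicate 2), 1 to 2 on HFS (1 without 24-month replicate 2 or 5), 3 to 7 on resveratrol (3 without 24-month replicate 4) and 4 to 5 for the difference in change. Between depots it gave 2 to 5 on SD (2 without visceral replicate 2), 13 to 16 on HFS, 19 to 22 on resveratrol and 4 to 8 for the difference in effect (8 without visceral resveratrol replicate 1).

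For the pairs with HSPA1B at baseline, z scores gave an r of 0.724 for HSPH1 and 0.766 for FOS in set A and 0.724 for DNAJB1 and 0.660 for HSPB1 in set B, which then passed, and of 0.727 for DNAJB1 and -0.475 for HSPA8 in set A and -0.381 for HSPA8 in set B, which did not. Without the 2 farthest arrays r was 0.736 for HSPA8 and 0.792 for HSPB1 in set A, and 0.680 for HSPH1 and 0.453 for FOS in set B.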
